A study of Mus musculus with 20 samples.

Results

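The genes described here are 10 that build, load and control MHC class I molecules in mouse liver. They are the inducible proteasome subunits Psmb8, Psmb9 and Psmb10, the peptide transporter genes Tap1 and Tap2, the loading chaperone Tapbp, the heavy chains H2-K1 and H2-D1, the light chain B2m and the regulator Nlrc5. They were picked out by gene symbol, from a set proposed with earlier results of these data known, and are 10 of the 37681 genes listed. Liver RNA came from 10 male mice of the strain labelled C57/BL6, aged 12 weeks. The 5 IL-1β treated mice received 20 µg/kg of the inflammatory cytokine IL-1β 4 h before collection, and the 5 untreated mice received saline at that time. The labels name no transgene or deletion. Each mouse gave 1 Illumina library (HiSeq, read pairs) and 1 Ion Torrent library (Proton), and reads were aligned with STAR, GSNAP or STAR followed by Bowtie2, which gave 6 tables of 10 libraries. Libraries are named by treatment and mouse as in the labels, ILB for treated (ILB_9577, ILB_9578, ILB_9579, ILB_9582, ILB_9583) and UNT for untreated (UNT_9574, UNT_9575, UNT_9576, UNT_9580, UNT_9584).

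Class I molecules show short peptides from the inside of a cell to T cells and NK cells. The proteasome cuts proteins into peptides, and in the immunoproteasome Psmb8, Psmb9 and Psmb10 take the places of the constitutive catalytic subunits Psmb5, Psmb6 and Psmb7. The Tap1 and Tap2 proteins form a pump that carries peptides into the endoplasmic reticulum, where tapasin, the product of Tapbp, holds the pump next to an empty heavy chain paired with B2m. Interferon gamma is the classical inducer of this set, acting in part through Irf1 and the transactivator Nlrc5, while NF-κB factors also bind class I promoters. Liver is made mostly of hepatocytes, which carry little class I at rest.

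Values below are CPM, the usual read count scaled to a common library size, here with TMM factors (TMM is a scaling that takes most genes as unchanged), and the table of Illumina reads aligned with STAR is meant where no other is named. Fold changes, standard errors (SE) and p-values adjusted over all 15578 genes tested (Benjamini-Hochberg) are from edgeR's quasi-likelihood test, and a gene was called at an adjusted p below 0.05. Total counts were 10568530 to 12008799 per Illumina library and 12199528 to 16439683 per Ion Torrent library. Without TMM factors the median log2 fold change over the 11929 genes averaging 10 or more reads was -0.12 instead of 0.005, and the share of calls that were higher was 38.8% instead of 49.8%, so changes are relative to the TMM baseline. Hepatocyte markers identified the tissue, with Alb, Apoa1, Ttr, Serpina1a, Hnf4a and Cyp2e1 together at 63649 to 75942 CPM in treated and 86741 to 105734 CPM in untreated mice. Illumina library UNT_9584 stood apart from the other untreated ones: across 10841 genes its deviations from them correlated with exon GC content at a Spearman's rho of -0.65, against -0.43 to 0.45 for the other 9 libraries and 0.22 for the Ion Torrent library of the same mouse. Among the other Ion Torrent STAR libraries the values ran from -0.59 to 0.62, so such a dependence on GC content was not particular to 1 library. The fold changes and ratios that this library moves most are given with and without it.

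Of the 10 genes, 9 passed the minimum of 5 reads in 5 libraries, and each of the 9 had reads in every library of both groups. With IL-1β, 7 of the 9 were called higher (Psmb8, Psmb10, Tap1, Tap2, Tapbp, H2-K1 and H2-D1), 1 was called lower (B2m) and 1 was not called (Nlrc5). Among all genes tested, 22.7% were called higher and 22.9% lower. The median log2 fold change of the 9 was 0.73, against 0.00 over all genes tested. In 7 of the 9 genes the treated and untreated libraries did not overlap in CPM, which was the case for 33.9% of all genes tested. With Ion Torrent it was 5 of the 9 with STAR and 4 with each other aligner, and the share of all genes was not computed there. Overlap here and below is judged on CPM with TMM factors. In the deposited Illumina STAR counts, without these factors, the groups of Psmb8, Tap2 and H2-K1 did overlap. The sizes were unequal, from 2.41-fold for Psmb10 to 1.34-fold for Tap1 among the genes called higher. Across the 6 tables, Psmb8, Psmb10, Tap2, Tapbp, H2-K1 and H2-D1 were called higher in each, which 17.3% of all genes tested were, and B2m was called lower in each, which 17.6% were. With Ion Torrent and STAR, 6 of the 9 were called higher and 1 lower, where 20.3% and 21.8% of all genes tested were. A rank-sum test on the deposited Illumina STAR counts, with no TMM factors, called 4 of the 9 higher and 13.8% of all genes tested.

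**Figure D1:**
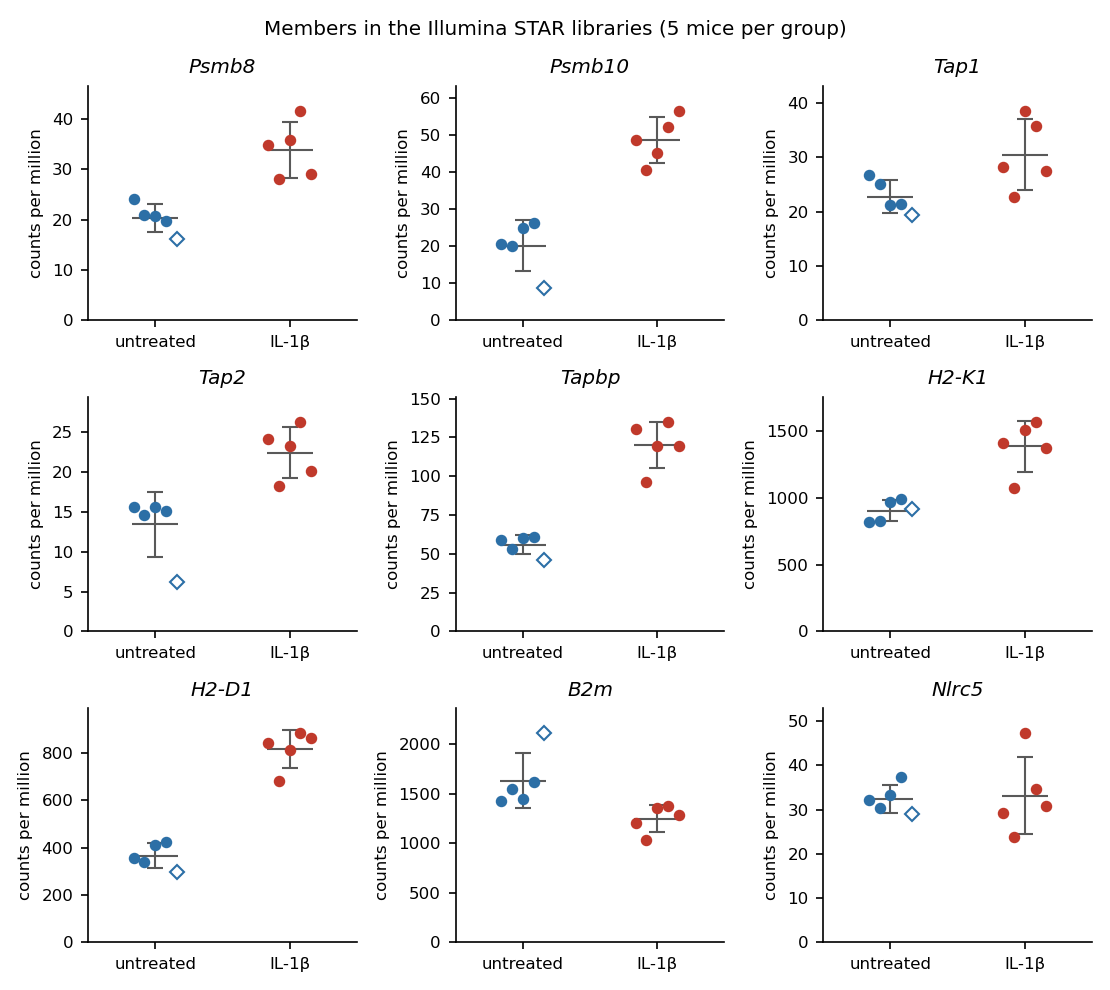
CPM (y axis, from 0) of the 9 measured genes in the 10 Illumina STAR libraries; blue points are untreated mice, red points IL-1β treated mice, the open diamond is mouse UNT_9584, and grey bars are the mean ± SD of 5 mice. All treated points lie above all untreated points for Psmb8, Psmb10, Tap2, Tapbp, H2-K1 and H2-D1, all lie below for B2m, and the groups overlap for Tap1 and Nlrc5.

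Levels can be set beside each other between genes only per length, here as CPM per kilobase of annotated exon. That length joins the exons of all annotated transcripts of a gene. For Tap1 it is 5476 bases and for Psmb8 2736 bases, against 2953 and 1628 bases in a transcript of each. The order of the genes therefore depends in part on the annotation. In untreated liver B2m was highest at 1900 ± 325 (SD, n = 5), followed by H2-K1 at 347 ± 30.6 and H2-D1 at 141 ± 20.3. Tapbp at 16.9 ± 1.87 and Psmb10 at 15.9 ± 5.45 did not differ beyond their spread, Psmb8 stood at 7.44 ± 1.02, and Nlrc5 at 4.44 ± 0.434, Tap1 at 4.16 ± 0.556 and Tap2 at 3.56 ± 1.07 overlapped. Among the 9 measured genes, those for the displayed chains were at higher levels per length than the other 6. With IL-1β the order of the first 3 was kept, at 1455 ± 163 for B2m, 532 ± 73.7 for H2-K1 and 315 ± 30.5 for H2-D1, while Psmb10 at 38.3 ± 4.81 and Tapbp at 36.4 ± 4.51 again overlapped. These overlaps were not seen with Ion Torrent and STAR. There Psmb10 was at 34.1 ± 3.7 and Tapbp at 22.2 ± 1.3 in untreated mice. In treated mice they were at 63.8 ± 4.7 and 47.7 ± 6.5. Untreated Nlrc5, at 4.04 ± 0.36, was below Tap2 at 5.46 ± 0.24.

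Psmb10 and Psmb8, the inducible subunits with trypsin-like and chymotrypsin-like activity, both rose. Psmb10 (mm9, chr8:108459628-108462292) was at 48.8, 40.6, 45.3, 52.2 and 56.5 CPM in treated mice ILB_9577, ILB_9578, ILB_9579, ILB_9582 and ILB_9583, and at 20.7, 20.2, 24.8, 26.4 and 8.73 CPM in untreated mice UNT_9574, UNT_9575, UNT_9576, UNT_9580 and UNT_9584. The groups did not overlap, and the lowest untreated value was that of library UNT_9584. The change was 2.41-fold (log2 1.27, SE 0.21, adjusted p = 0.00018), or 2.12-fold without mouse UNT_9584, and 1.83 to 1.87-fold in the 3 Ion Torrent tables. Psmb8 (chr17:34334666-34338399) was at 34.8, 28.0, 35.8, 41.6 and 29.0 CPM in the treated and 24.1, 20.9, 20.7, 19.8 and 16.3 CPM in the untreated mice, in the same order. It too showed no overlap in CPM, in any of the 6 tables, and rose 1.66-fold (log2 0.73, SE 0.13, adjusted p = 0.000325). In the deposited counts its groups overlapped, at 284 to 419 reads in treated and 175 to 289 in untreated Illumina STAR libraries. They also overlapped in the deposited Ion Torrent counts with STAR and with GSNAP.

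Psmb9, the third inducible subunit, could not be measured. The gene (chr17:34318932-34324697) held 0 reads in all 10 Illumina libraries with each aligner and 1 read in 1 Ion Torrent library, that of treated mouse ILB_9582. A second gene model at the same place, listed as CR974422.1, covers 3647 of the 3648 exon bases of Psmb9 on the same strand and was also at 0 or 1 read. Of 107 protein-coding genes with at least 95% of their exon bases inside another gene model on the same strand, 97 (90.7%) were at 0 in all 10 libraries, against 5942 of 21170 (28.1%) of those with no such base. A count of 0 here is no measure of Psmb9 expression, and the gene enters no count above.

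Psmb5, which Psmb8 replaces, rose as well, from 53.1 to 74.7 CPM in untreated to 76.6 to 86.3 CPM in treated mice (1.34-fold, adjusted p = 0.00576). Psmb6, the counterpart of Psmb9, was at 105 to 124 CPM in treated and 89.2 to 109 CPM in untreated mice (1.16-fold, adjusted p = 0.0663). Psmb7, the counterpart of Psmb10, was at 118 to 136 CPM in treated and 121 to 170 CPM in untreated mice (0.935-fold, adjusted p = 0.49). The ratio of inducible to constitutive counts within a library, which no scaling of libraries affects, was computed for 2 pairs. Psmb10/Psmb7 was 0.415, 0.313, 0.332, 0.396 and 0.471 in the treated libraries and 0.158, 0.148, 0.204, 0.217 and 0.0515 in the untreated ones. The groups did not overlap, and the ratio was 2.72 times higher with IL-1β (two-sided exact permutation test, p = 0.00794, which is the smallest that 5 against 5 allows, and 0.0159 after adjustment over both pairs). Without mouse UNT_9584 it was 2.12 times higher, and in the Ion Torrent STAR table it was 1.94 times higher. Psmb8/Psmb5 was 0.34 to 0.482 in treated and 0.265 to 0.42 in untreated libraries, with overlap (1.23 times higher, exact permutation p = 0.103). That p does not show the ratios to be alike. With GSNAP the Illumina difference had an exact p of 0.0476, and of 0.0952 without mouse UNT_9584, and in the 3 Ion Torrent tables the log2 difference was 0.16 to 0.18 (exact p = 0.246 to 0.302).

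Tapbp, which encodes tapasin, rose in every table. It lies at chr17:34052844-34066235 and was at 130.3, 96.4, 119.5, 134.9 and 119.8 CPM in the treated and 58.6, 52.9, 60.5, 60.6 and 46.3 CPM in the untreated mice. The lowest treated value was well above the highest untreated one, and the fold change was 2.15 (log2 1.11, SE 0.11, adjusted p = 1.48e-06). Over the 6 tables it was 2.07 to 2.16-fold, without overlap in any.

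Of the transporter genes, Tap2 was called higher in all 6 tables and Tap1 in 3. Tap2 (chr17:34340472-34353266) was at 24.2, 18.2, 23.3, 26.3 and 20.1 CPM in the treated and 15.7, 14.6, 15.6, 15.1 and 6.23 CPM in the untreated mice. The groups did not overlap in CPM, with library UNT_9584 far below the other untreated ones. The change was 1.66-fold (log2 0.74, SE 0.20, adjusted p = 0.00733), 1.47-fold without mouse UNT_9584 and 1.34 to 1.42-fold in the Ion Torrent tables. Among the latter, the groups of Tap2 overlapped with GSNAP and with STAR+Bowtie2. Tap1 (chr17:34324498-34334170) was at 28.2, 22.7, 38.5, 35.8 and 27.5 CPM in the treated and 26.7, 25.1, 21.2, 21.5 and 19.3 CPM in the untreated mice. Treated mouse ILB_9578 fell within the untreated range and the other 4 above it. The 1.34-fold change (log2 0.42, SE 0.15) passed with an adjusted p of 0.027 but was not called in the 3 Ion Torrent tables (1.28 to 1.32-fold, adjusted p = 0.0639 to 0.0949), and the log2 fold change of Tap1 was also not called without any 1 of the mice ILB_9579, ILB_9582, UNT_9576, UNT_9580 and UNT_9584 (adjusted p = 0.0829, 0.0789, 0.0579, 0.0533 and 0.0604).

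The classical heavy chains H2-K1 and H2-D1 both rose. H2-D1 (chr17:35399675-35404444) was at 839, 682, 812, 882 and 862 CPM in the treated and 354, 340, 412, 423 and 296 CPM in the untreated mice. Its groups did not overlap in any of the 6 tables, and it rose 2.23-fold (log2 1.16, SE 0.12, adjusted p = 1.55e-06). H2-K1 (chr17:34132962-34137278, minus strand) was at 1416, 1072, 1507, 1569 and 1373 CPM in the treated and 820, 828, 967, 996 and 917 CPM in the untreated mice. It rose 1.53-fold (log2 0.62, SE 0.12, adjusted p = 0.000488). Its groups did not overlap in CPM in the Illumina tables but did in the Ion Torrent ones, where the fold was 1.44 to 1.48. Within a library H2-D1/H2-K1 was 0.539 to 0.637 in treated and 0.323 to 0.432 in untreated mice, 1.47 times higher with IL-1β (exact permutation p = 0.00794, adjusted p = 0.0111 over the 7 pairs that were added after the data were seen, 1.4 times without mouse UNT_9584).

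The coding sequences of H2-K1 and H2-D1 are identical at 92% of 1077 aligned bases, so reads could be counted for the wrong gene. No word of 125 bases, the Illumina read length, in the H2-K1 transcript occurs in a transcript of another gene, and 68 of 1978 (3.44%) in H2-D1 do, most of them in H2-Q2. With words of 50 bases the shares were 8.87% and 14.3%. Across the 3 aligners the Illumina fold changes were 1.51 to 1.53 for H2-K1 and 2.16 to 2.23 for H2-D1.

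Of 16 tested heavy chain genes of the H2-Q, H2-T, H2-M, H2-K2 and H2-Bl kind, 2 rose, 3 fell and 11 were not called, against 22.7% higher and 22.9% lower over all genes tested, and their median log2 fold change was -0.14. H2-Q7, a nonclassical heavy chain, rose from 32.0 to 44.8 CPM in untreated to 60.3 to 103 CPM in treated mice (2.28-fold, adjusted p = 7.73e-06), and its neighbour H2-Q6 rose 1.88-fold (adjusted p = 0.00191). These 2 share 10.9% of the 125-base words of H2-Q7, so their reads cannot be fully told apart. H2-T22 fell 0.833-fold (adjusted p = 0.0258), H2-T24, at a mean of 10.2 reads in treated and 26.8 in untreated mice, fell 0.435-fold (adjusted p = 0.0109), and the last of those that fell was H2-T10, named after its value was seen (0.621-fold, adjusted p = 0.0177, called lower in 4 of the 6 tables). H2-Q10, the secreted class I chain made by liver, was at 1608, 1248, 1831, 1534 and 1739 CPM in the treated and 1437, 1427, 1462, 1965 and 1702 CPM in the untreated mice (0.996-fold, adjusted p = 1). The groups overlapped throughout. The ratio H2-K1/H2-Q10 was 1.53 times and H2-Q7/H2-Q10 2.27 times higher with IL-1β (exact permutation p = 0.00794 for each, 0.0111 adjusted over the 7 pairs), or 1.51 and 2.14 times without mouse UNT_9584. Both pairs were added after the data were seen, with a gene called higher over one that was not called. Their p-values therefore restate those calls and are no further support.

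The stretches before the transcription start of these genes are shown because class I promoters carry an NF-κB element, called enhancer A, that can be compared between the genes that rose and H2-Q10. Sequences are the 250 bases before the RefSeq start (GRCm38.p6), each of which occurs once in NCBIM37 (mm9), whose coordinates are given. Capitals mark matches on either strand to GGGNNNNNCC, a loose NF-κB type motif, or to GAAANNGAAA, an interferon response type motif; overlapping matches form 1 run.
H2-K1, chr17:34137279-34137528, minus strand: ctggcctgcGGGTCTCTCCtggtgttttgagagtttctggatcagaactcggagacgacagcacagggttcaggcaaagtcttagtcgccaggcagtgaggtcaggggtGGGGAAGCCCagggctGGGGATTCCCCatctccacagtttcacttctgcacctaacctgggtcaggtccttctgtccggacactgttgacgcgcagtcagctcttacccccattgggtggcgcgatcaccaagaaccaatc
H2-D1, chr17:35399789-35400038, plus strand: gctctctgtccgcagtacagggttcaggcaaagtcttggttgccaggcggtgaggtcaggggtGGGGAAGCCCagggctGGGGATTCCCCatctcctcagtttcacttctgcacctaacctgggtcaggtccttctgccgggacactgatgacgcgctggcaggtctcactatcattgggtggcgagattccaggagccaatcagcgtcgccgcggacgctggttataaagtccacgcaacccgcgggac
H2-Q7, chr17:35575850-35576099, plus strand: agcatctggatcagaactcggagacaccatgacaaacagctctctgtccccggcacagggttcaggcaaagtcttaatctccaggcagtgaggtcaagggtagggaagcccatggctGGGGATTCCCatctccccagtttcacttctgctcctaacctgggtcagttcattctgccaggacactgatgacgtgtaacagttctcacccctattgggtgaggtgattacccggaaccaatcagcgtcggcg
H2-Q10, chr17:35606784-35607033, plus strand: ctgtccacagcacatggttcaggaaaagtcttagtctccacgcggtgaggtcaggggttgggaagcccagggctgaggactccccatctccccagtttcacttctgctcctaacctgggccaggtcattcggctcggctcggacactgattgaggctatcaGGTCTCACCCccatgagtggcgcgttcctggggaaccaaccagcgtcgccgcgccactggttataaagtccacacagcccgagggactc
H2-K1, H2-D1, H2-Q7 and H2-Q6, the class I genes called higher, have the letters GGGGATTCCC in this window, and the matching stretch of H2-Q10 differs by G2A and T6C, counted from 1 at the first base of those letters in H2-D1. The 10 letters were chosen after the sequences were seen. They were taken as a stretch of H2-D1 that the windows of H2-K1, H2-Q6 and H2-Q7 also hold. That these 4 genes, all called higher, have the letters was therefore set by the choice. The letters occur on either strand in 28 of 32851 such windows (0.0852%), which belong to 27 genes. These 27 include those 4 H2 genes, and of the rest 2 were called higher, 3 lower and 6 not. The other 12 were either below the read minimum or not found by symbol among the genes counted. GGGNNNNNCC occurs in 45.8% of the windows and GAAANNGAAA in 2.98%. Psmb8, Psmb10 and Tapbp, which were also called higher, have no match to either motif in their windows. Tap1 has 5 matches to GGGNNNNNCC, and H2-T22, which was called lower, has 2. A match describes the letters only. Of the 10 genes, 8 have a window in the table, and Tap2 and Nlrc5 have none.

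B2m, the light chain that every class I heavy chain pairs with, moved the other way. It lies at chr2:121973422-121978819 and was at 1204, 1031, 1361, 1374 and 1286 CPM in the treated and 1431, 1553, 1448, 1624 and 2113 CPM in the untreated mice. The groups did not overlap, with library UNT_9584 the highest, and B2m fell 0.766-fold (log2 -0.38, SE 0.13, adjusted p = 0.0213), or 0.826-fold without mouse UNT_9584 (adjusted p = 0.0446). Without treated mouse ILB_9578 the Illumina call was lost (log2 -0.32, adjusted p = 0.0504). In the Ion Torrent tables it was called at 0.827 to 0.837-fold, with overlap, and without mouse UNT_9584 it was not (log2 -0.21 to -0.23, adjusted p = 0.111 to 0.117). Its exons hold 41.2% G and C, the other 8 measured genes 52.9 to 57.2%. Its promoter is shown because it has both motif types close together, GAAACTGAAA and GGGAAAGTCC, in a gene that did not rise.
B2m, chr2:121973173-121973422, plus strand: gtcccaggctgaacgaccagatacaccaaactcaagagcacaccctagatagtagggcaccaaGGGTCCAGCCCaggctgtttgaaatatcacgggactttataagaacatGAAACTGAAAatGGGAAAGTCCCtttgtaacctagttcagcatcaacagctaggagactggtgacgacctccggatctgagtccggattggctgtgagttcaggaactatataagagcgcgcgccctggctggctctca

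The heavy and light chains shifted against each other. H2-D1/B2m was 0.697, 0.662, 0.597, 0.642 and 0.67 in the treated and 0.247, 0.219, 0.285, 0.26 and 0.14 in the untreated libraries, 2.91 times higher with IL-1β. H2-K1/B2m was 1.04 to 1.18 in treated and 0.434 to 0.668 in untreated libraries, 1.98 times higher. Neither pair overlapped (exact permutation p = 0.00794, adjusted p = 0.0111 over the 7 pairs for each). Both pairs were added after the data were seen, with a gene called higher over one called lower. That p therefore restates those calls. Without mouse UNT_9584 the ratios were 2.59 and 1.86 times higher, and in the Ion Torrent STAR table they were 2.32 and 1.77 times higher. These are ratios of counts, and say how the genes changed against each other, not how many molecules of each were present.

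**Figure D2:**
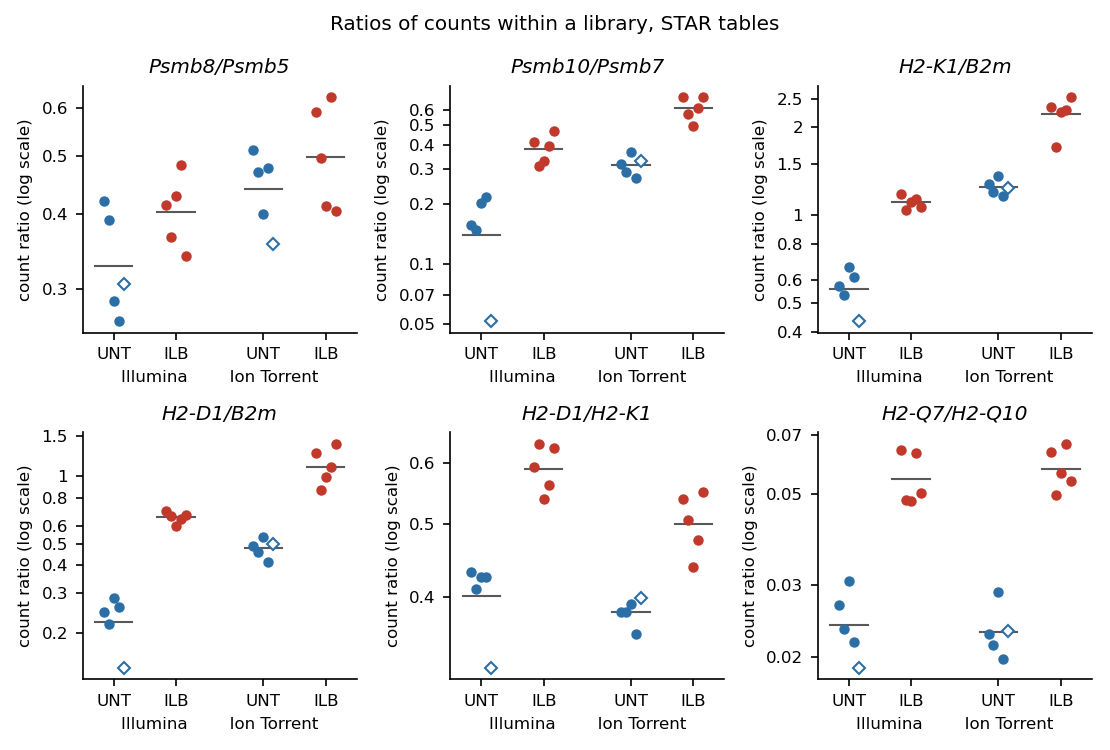
Ratios of the counts of 2 genes within a library (y axis, log scale) in the Illumina STAR and Ion Torrent STAR tables; points are mice, the open diamond is mouse UNT_9584, and grey lines are geometric means of 5. Treated (ILB) and untreated (UNT) libraries are separate in both tables for Psmb10/Psmb7, H2-K1/B2m, H2-D1/B2m, H2-D1/H2-K1 and H2-Q7/H2-Q10, and overlap for Psmb8/Psmb5.

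Nlrc5, which drives class I genes in lymphocytes, was at 29.3, 23.9, 47.3, 34.7 and 30.7 CPM in the treated and 32.2, 30.3, 33.2, 37.2 and 29.0 CPM in the untreated mice. Treated mouse ILB_9579 was above and ILB_9578 below every untreated one, and the others lay among them (1.02-fold, SE 0.15 on the log2 scale, adjusted p = 0.909). In the 6 tables the fold was 0.994 to 1.06, never called. It lies at chr8:96996663-97051172, and the annotation used lists it as a lincRNA although it encodes a protein.

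**Figure D3:**
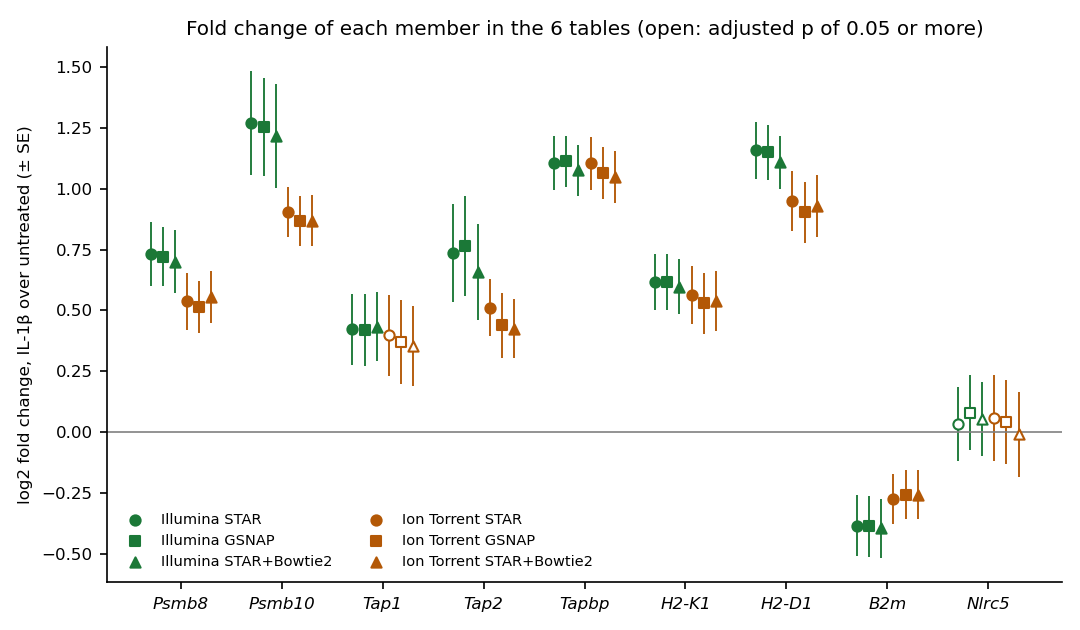
Log2 fold change ± SE (y axis) of the 9 measured genes in each of the 6 tables, green for Illumina and orange for Ion Torrent; open symbols have an adjusted p of 0.05 or more. Tapbp lies at 1.05 to 1.11 in every table, Psmb10 at 1.22 to 1.27 in the Illumina and 0.87 to 0.90 in the Ion Torrent tables, and Tap1 is called in the Illumina tables alone.

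The difference of the IL-1β effect between platforms was tested as an interaction in the 20 STAR libraries with the mouse as a block. None of the 9 genes was called by edgeR, and in the same test 0.00642% of all genes tested were. The Psmb10 term was log2 -0.38 with STAR (SE 0.175, edgeR adjusted p = 0.696). With GSNAP the terms of Psmb8, Psmb10 and H2-D1 were -0.21, -0.41 and -0.26 (edgeR adjusted p = 0.633, 0.598 and 0.591). These terms are named because their unadjusted edgeR p was below 0.05. The share of all genes tested below that limit was not computed, so it cannot be told whether they stand out. DESeq2 and limma-voom called 0 of the 9. For Psmb10 the term was -0.14 without mouse UNT_9584.

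Genes that work beside these in peptide loading rose in part. Of 11 such genes, 7 rose and 4 were not called, with a median log2 fold change of 0.53. Among all genes tested 22.7% were called higher. Tapbpl, a tapasin relative that edits peptides, rose from 16.5 to 24.7 CPM to 63.4 to 70.8 CPM (3.25-fold, adjusted p = 4.34e-08) without overlap. The endoplasmic reticulum chaperone Hspa5 rose 4.08-fold (adjusted p = 1.37e-05), the translocon subunit Sec61a1 2.18-fold (adjusted p = 1.11e-06), the lectin chaperone Calr 1.85-fold (adjusted p = 5.76e-05) and the thiol oxidoreductase Pdia3 1.63-fold (adjusted p = 0.00279). Most of these serve all secreted proteins and not class I alone. The trimming peptidase Erap1 was not called (log2 0.04, adjusted p = 0.839).

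**Figure D4:**
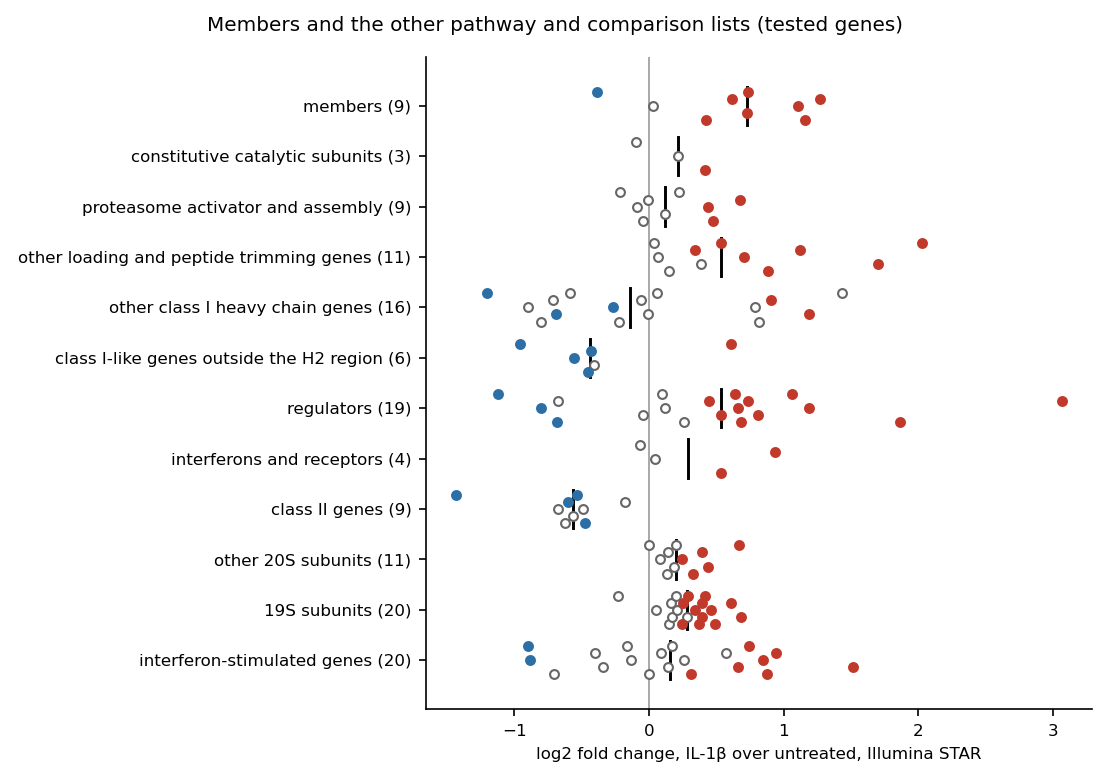
Log2 fold change with IL-1β in the Illumina STAR table (x axis) for the tested genes of each list (y axis, number tested in brackets); red points were called higher, blue points lower, open points not called, and black bars are medians. The 9 measured class I genes have a median of 0.73, class II genes one of -0.56 and interferon-stimulated genes one of 0.16.

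Proteasome genes outside the catalytic subunits rose in part, where 22.7% of all genes tested were called higher and 22.9% lower. Of 9 activator and assembly genes 3 rose, which is near that share, and 6 were not called (median log2 0.12). Psme3, an activator of the nuclear proteasome, rose 1.36-fold (adjusted p = 0.00142). Of the 11 other subunits of the core particle 5 rose and 6 were not called (median 0.20), led by Psma5 at 1.59-fold (adjusted p = 2.95e-05), Psma1 at 1.35-fold (adjusted p = 0.00263) and Psmb2 at 1.31-fold (adjusted p = 0.00209). Of 20 regulatory particle genes 12 rose and 8 were not called (median 0.29), led by Psmd10 at 1.61-fold, Psmd3 at 1.53-fold and Psmd7 at 1.41-fold (adjusted p = 0.000332, 0.000611 and 0.000149). No gene of these 3 lists was called lower with TMM factors. Without them 1 activator or assembly gene and 1 regulatory particle gene were called lower, and 7 of the 20 regulatory particle genes higher (median 0.16). Of all 15578 genes tested, 2746 were then called higher and 4335 lower. Without mouse UNT_9584, 8 of the 11 core and 16 of the 20 regulatory particle genes were called higher, as were 3526 of all 15578. Psmb10, at 2.41-fold, had a larger fold than each gene of these lists in the Illumina STAR table, where the largest was that of Psmd10. Without mouse UNT_9584 Psmb10 was at 2.12-fold there. In the Ion Torrent STAR table Psmb10 was at 1.87-fold, close to Psmd10 at 1.79-fold. Psmb8, at 1.66-fold in the Illumina STAR table, was close to Psmd10 and Psma5. With Ion Torrent and STAR, Psmb8 was at 1.45-fold, below Psmd10 and below Psma5 at 1.64-fold. These differences in fold were not tested.

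Regulators of the class I genes split. Of 19 tested, 11 rose, 3 fell and 5 were not called (median log2 0.54), against 22.7% higher and 22.9% lower over all genes tested. The NF-κB genes Nfkb2 (20.3 to 54.1 CPM against 2.69 to 5.06 CPM, 8.37-fold, adjusted p = 2.15e-07), Relb (3.65-fold, adjusted p = 0.000306) and Rela (2.28-fold, adjusted p = 4.57e-07) rose, as did Rfxank (2.09-fold, adjusted p = 1.42e-05), a subunit of the factor that binds the X box of class I and class II promoters. Irf1 fell, from 45.4, 42.4, 32.0, 37.3 and 50.4 CPM in the untreated mice to 20.3, 26.0, 20.5, 13.8 and 14.7 CPM in the treated ones (0.46-fold, adjusted p = 7.27e-05). Its groups did not overlap in either STAR table. Rfx5, another subunit of the X box factor, fell 0.573-fold (adjusted p = 0.00191), and the class II transactivator Ciita was at 0.497 to 1.04 CPM against 0.978 to 1.36 CPM and was not called (adjusted p = 0.0551).

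Interferon transcripts were at or near 0. Ifng had a mean of 0.2 reads in treated and 0.4 in untreated libraries, and Ifnb1, Ifna1, Ifna2 and Ifna4 had none. The receptor genes Ifngr2 (1.91-fold, adjusted p = 4.8e-05) and Ifnar1 (1.45-fold, adjusted p = 0.000581) rose, and Ifngr1 and Ifnar2 were not called. Of 20 interferon-stimulated genes 7 rose, 2 fell and 11 were not called, with a median log2 fold change of 0.16. Over all genes tested 22.7% were called higher and 22.9% lower. Isg15 rose 2.86-fold (adjusted p = 5.2e-06) and Parp14 1.92-fold (adjusted p = 0.000745), whereas Ddx58, an RNA sensor, fell 0.537-fold (adjusted p = 0.00038). No test compared this list with the class I genes.

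Class II genes and class I-like genes were called lower in part, where 22.9% of all genes tested were called lower and 22.7% higher. Of 9 tested class II genes 4 fell and 5 were not called (median log2 -0.56), among them H2-Aa at 0.658-fold (adjusted p = 0.0238). Of 6 class I-like genes outside the H2 region 4 fell, 1 rose and 1 was not called: the antigen-presenting Mr1 (0.514-fold, adjusted p = 0.00249) and Cd1d1 (0.68-fold, adjusted p = 0.000863), the Fc receptor Fcgrt (0.744-fold, adjusted p = 0.0142) and Azgp1 (0.73-fold, adjusted p = 0.00152) fell, and the iron regulator Hfe rose 1.52-fold (adjusted p = 5.77e-05). Fcgrt, Hfe, Mr1 and Cd1d1 proteins also pair with B2m.

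The samples are whole liver, so fewer or more cells of a type and less or more RNA per cell cannot be told apart. Some markers of other cells moved with the treatment. The 8 neutrophil markers summed to 49.1 to 106 CPM in treated and 2.13 to 6.33 CPM in untreated mice, with 5 of 5 tested called higher, though the granule genes Elane and Mpo and the defining Ly6g had a mean below 5 reads. The 8 Kupffer cell and macrophage markers summed to 70.6 to 163 and 127 to 219 CPM, and Adgre1 was not found by symbol. Of 7 tested 1 was called higher and 3 lower, against 22.7% and 22.9% of all genes tested. The 9 T and NK cell markers summed to 1.11 to 3.22 and 3.35 to 4.26 CPM. Of these, Cd3d, Cd3e, Cd3g, Cd8a, Gzma, Ncr1 and Nkg7 had a mean below 5 reads. Of 5 tested, 0 were called higher and 1 lower. B cell markers (4 genes) summed to 0.403 to 1.39 and 0.978 to 3.66 CPM, with Cd79a, Cd79b and Ms4a1 below a mean of 5 reads. Of 3 tested, 0 were called higher and 1 lower. Dendritic cell markers (6 genes) summed to 9.52 to 15.1 and 10.7 to 13.8 CPM, with Flt3 and Xcr1 below that mean. Of 5 tested, 1 was called higher and 0 lower. Endothelial markers (6 genes) summed to 89.7 to 146 and 115 to 174 CPM, and of 6 tested 2 were called higher and 2 lower. Whether incoming neutrophils supply part of the class I transcripts was not tested.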

How the data were processed

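Liver RNA of 10 mice was sequenced on both platforms. The deposited counts of reads per gene were made by the authors with the PORT pipeline, which removes ribosomal and mitochondrial reads and re-samples libraries to like depth, on mouse build mm9 with Ensembl gene models. The submitters' processing notes list STAR 2.5.1b, GSNAP and Bowtie2 2.2.9. Whether counting used strand is not given in the sources used here. Re-sampling makes totals alike and gives up reads, which widens counting error for low genes.

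Total counts were 10568530 to 16439683 per library. Genes with at least 5 reads in at least 5 of the 10 libraries of any table were tested (15578 of 37681) with the quasi-likelihood test of edgeR 4.0.16 (R 4.3.3), TMM factors and Benjamini-Hochberg adjustment, within each table. Alternatives were DESeq2 1.42.0, limma-voom (limma 3.58.1), no TMM factors, no filter, rank-sum tests, the other tables and each mouse left out. On simulated counts with 200 of 15578 genes changed by 1.5 on the log2 scale for IL-1β against saline, edgeR called 198 of them and 9 others. Ratios of counts within a library were compared by two-sided exact permutation tests. Promoter sequences are from RefSeq (GRCm38.p6), and motifs were searched on both strands.

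The mouse number pairs the libraries of both platforms, since each mouse gave both. Deviations from the treatment mean correlated between platforms at 0.591 to 0.746 for 9 mice and at 0.197 to 0.249 for mouse UNT_9584 over the aligners, so the platform comparison used the mouse as a replicate block. Other values are for libraries of separate animals.

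The genes and lists were chosen with earlier results of these data known. Named were the 10 genes, Psmb5, Psmb6, Psmb7 and H2-Q10, and up to 5 genes of each other pathway list, up to 3 of each comparison list and up to 5 chromosome 17 neighbours with the largest change among those called alike in all 6 tables. Irf1, Rfx5, Ciita and Ifng were named whatever their values (another gene so named is not reported here), and the 5 genes most like the set by correlation were added. The 7 added count ratios, the 10-letter motif, and the rank-sum and mouse UNT_9584 alternatives in the other tables were chosen after seeing the data.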

Additional observations from a re-analysis of the deposited data

Results flagged for a closer look

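Single libraries stood apart from the other 4 of their group (gap over range above Dixon's critical value of 0.71) in 7 of 55 groups examined. Chance gives about 1 in 20 for independent groups. These groups share libraries and genes, so that rate cannot be set against the 7. In 5 of the 7 it was the Illumina library of untreated mouse UNT_9584. There Tap2 was at 6.23 CPM against 14.6 to 15.7 in the other untreated libraries, and B2m at 2113 CPM against 1431 to 1624. The ratio Psmb10/Psmb7 was 0.0515 against 0.148 to 0.217, H2-D1/H2-K1 was 0.323 against 0.41 to 0.432, and Tap2/Tap1 was 0.322 against 0.583 to 0.737. In the Ion Torrent STAR table, treated mouse ILB_9582 had Psmb8 at 54.4 CPM against 37.3 to 41.7, and Psmb9 at 0.0853 CPM, which is a single read, against 0 in the other 4.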

How the results depend on the processing

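The count of 7 genes called higher was 6 to 7 when each mouse was left out in turn, 3 when an absolute log2 fold change above 1 was also asked for, and 4 by a rank-sum test on the deposited counts. In the other tables the rank-sum test called 4 (Illumina GSNAP and STAR+Bowtie2, Ion Torrent GSNAP and STAR+Bowtie2) or 3 (Ion Torrent STAR). On the Illumina STAR counts the rank-sum test called 2154 of all genes tested higher, against 3541 with edgeR. The share of all genes was not computed for the fold limit or for the rank-sum test in the other tables. Those counts therefore have no background to be set against. The single gene called lower, B2m, gave a count of 0 to 1 with each mouse left out, and 0 with the fold limit and in the Ion Torrent tables without mouse UNT_9584. The median log2 fold change of 0.73 was 0.51 in the Ion Torrent GSNAP table, with or without mouse UNT_9584. It was 0.54 in each of the other Ion Torrent tables. Without TMM factors the Illumina STAR median was 0.6, and 6 of the 9 genes were called higher, as were 2746 of all 15578 tested. The causes were not tested.

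Nlrc5, not called in any setting, changed sign with log2 fold changes of -0.01 (Ion Torrent STAR+Bowtie2), -0.10 (no TMM factors), -0.15 (rank-sum test) and -0.10 to -0.15 (rank-sum tests in the other tables, one at -0.11), and ranged from -0.13 to 0.13 with each mouse left out. H2-Q10 ranged from -0.06 to 0.08. For the ratios (log2, IL-1β minus saline), leaving out each mouse gave 0.22 to 0.38 for Psmb8/Psmb5, 0.19 to 0.49 for Tap2/Tap1 and 0.43 to 0.76 for Psmb10/Psmb8, with calls gained or lost within these ranges, and Psmb8/Psmb5 was 0.35 and passed with Illumina GSNAP.

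The platform comparison with the replicate block called 0 of the 9 genes with each aligner, and 0 without the block. Its terms changed sign for Tapbp (-0.06 with GSNAP, -0.05 with STAR+Bowtie2, -0.05 to 0.10 with each mouse left out) and Nlrc5 (-0.06, -0.09 and -0.04 to 0.09), and with each mouse left out ranged from -0.05 to 0.05 for Tap1 and -0.07 to 0.003 for H2-K1. Low counts limit H2-T24 and the interferon genes.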

Other observations

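Of the 10 genes, 7 lie within 1.35 Mb of chromosome 17 (mm9, chr17:34052844-35404444), and the 6 tested there were all called higher. Among the other genes of this stretch that are not H2 genes, 68 of 123 were tested, and 27 (39.7%) were called higher and 7 (10.3%) lower, with a median log2 fold change of 0.30, against 22.7% higher and 22.9% lower over all genes tested. Of 10 tested H2 genes in it other than H2-K1 and H2-D1, both of which were called higher, 4 were called lower and 6 were not called by edgeR. The neighbours with the largest changes were RP23-115O3.18 (log2 -4.44), D17H6S56E-5 (12.9-fold, adjusted p = 7.44e-11), Cyp21a1 (7.72-fold), Hspa1a (4.25-fold) and Stk19 (4.09-fold). RP23-115O3.18, Cyp21a1 and Hspa1a were at low levels. Their mean CPM was 0.0391, 3.18 and 0.998 in treated and 1.1, 0.4 and 0.231 in untreated mice. The groups of Hspa1a overlapped.

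Across the 10 Illumina STAR libraries, after the mean of each treatment was taken out, the genes whose levels followed the mean of the 9 measured class I genes most closely, of 7810 with a mean count of at least 100, were Timm10 (Pearson's r = 0.937), Rab5c (0.935), Rnf123 (0.927), Abca2 (0.925) and Phc2 (0.924). In the Ion Torrent STAR libraries of the same mice the values were 0.331, 0.698, 0.811, 0.793 and 0.748. The points share the libraries and their base composition, and the values are a description.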
